A study of Homo sapiens with 18 samples.

Results

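The libraries described here compared irradiated, mitochondria-depleted and acetate-supplied fibroblasts that did or did not also receive mitochondrial DNA (mtDNA) by transfection. All cells were IMR90, a line of human lung fibroblasts, in which an introduced gene makes the uncoupler CCCP clear the mitochondria. Every library in both groups came from cells made senescent by ionising radiation (IR), depleted with CCCP and given acetate, so the controls carried all of these treatments too. The control is called Sen (IR) + CCCP + acetate (acetate below), and the group that was in addition transfected with mtDNA extracted from an IMR90 mitochondrial fraction is called Sen (IR) + CCCP + acetate + mtDNA (combination below). The members were the 3 combination libraries and the 3 acetate libraries, chosen by their labels, of 18 in the series, and all genes that passed a filter on low counts were compared: 16994 of 57500. Neither the labels nor the methods used here name an acetate control that received the transfection reagent without DNA, so the DNA and the act of transfection cannot be told apart. The study describes its replicates as independent experiments, while the labels only number them. The p-values of the gene tests rest on the spread between replicate libraries, estimated over all 18 of the series. Combination replicate 2 stood apart from replicates 1 and 3, and the counts and main results are therefore also given without it.

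DNA in the cytosol is recognised by cGAS, which signals through STING and TBK1 to the transcription factor IRF3 and to NF-κB. IRF3 switches on interferon-β, which acts back on the cells through JAK kinases, STAT factors and IRF9 to switch on interferon-stimulated genes, many of which block viruses. NF-κB drives interleukin-6, interleukin-8 and other secreted factors of the senescence-associated secretory phenotype, the mix of cytokines, growth factors and proteases that senescent fibroblasts release.

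Stretches of the promoters of 8 of the genes that rose are shown first, because they carry the sequences that the factors of these pathways bind. The RefSeq promoters (build GRCh38.p14) run from 250 bases before to 50 bases after each start, and the stretches shown lie before the start and outside annotated exons. In the first 5, capitals mark matches on either strand to GAAA, 2 bases of any kind and GAAA again, the core of the interferon-stimulated response element to which complexes with IRF9 and other IRFs bind. In the last 3, capitals mark matches to the κB consensus, the element bound by NF-κB. The windows lie at chr10:89392467-89392545 (+ strand, IFIT1), chr1:1013344-1013439 (+, ISG15), chr4:88456954-88457094 (+, HERC5), chr21:41431814-41431903 (+, MX1), chr4:76023669-76023747 (- strand, CXCL10), chr7:22727087-22727146 (+, IL6), chr6:137867152-137867213 (+, TNFAIP3) and chr9:21077959-21078048 (-, IFNB1), each written 5′ to 3′ on the gene's strand.
IFIT1: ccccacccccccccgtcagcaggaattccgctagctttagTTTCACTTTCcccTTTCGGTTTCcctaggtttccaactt
ISG15: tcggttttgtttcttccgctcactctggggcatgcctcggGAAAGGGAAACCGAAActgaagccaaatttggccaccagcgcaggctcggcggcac
HERC5: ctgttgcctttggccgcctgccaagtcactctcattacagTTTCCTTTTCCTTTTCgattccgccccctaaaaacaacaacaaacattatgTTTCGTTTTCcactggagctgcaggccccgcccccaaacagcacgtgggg
MX1: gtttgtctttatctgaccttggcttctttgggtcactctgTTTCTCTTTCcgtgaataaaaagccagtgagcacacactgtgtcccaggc
CXCL10: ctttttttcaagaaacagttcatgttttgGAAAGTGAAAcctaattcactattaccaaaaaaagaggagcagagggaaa
IL6: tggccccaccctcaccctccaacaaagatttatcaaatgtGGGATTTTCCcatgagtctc
TNFAIP3: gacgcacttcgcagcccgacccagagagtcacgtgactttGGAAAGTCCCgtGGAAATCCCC
IFNB1: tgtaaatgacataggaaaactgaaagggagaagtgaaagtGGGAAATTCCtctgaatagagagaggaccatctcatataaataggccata

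A match to this interferon-response core stood in the promoter of 4.15% of the 11856 tested genes that had a promoter listed, and in 4.38% of all 27305 genes listed. It stood in 11.8% of the 884 genes with a promoter that were higher in the combination, in 50% of the 94 that were higher by more than 1 on the log2 scale, and in 2.11% of the 662 that were lower. Of the antiviral effector genes described below, 27 of the 37 with a listed promoter held it. Other lists described below differed. The core stood in 11 of 18 genes of MHC class I presentation and 4 of 9 of the ISG15 list. It stood in 3 of 10 genes of RNA sensing and 1 of 5 interferon-inducible and CC chemokines. None of the 13 JAK, STAT and IRF genes with a listed promoter held it, and none of the 13 of DNA sensing did. The κB consensus stood in 8.89% of the tested genes, 11.1% of the higher genes and 14 of 24 genes of the NF-κB list with a promoter. Matches of both motifs can share bases, a gene with several listed starts was counted if any start held a match, and a match is a description of the letters and not of a bound site.

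The 6 libraries held between 25013145 and 46045962 counts in genes, the lowest total being combination replicate 2. Values below are CPM, counts of a gene relative to its library's counts on tested genes after TMM scaling, levels are not compared between genes, and a difference is the log2 fold change (combination minus acetate) from edgeR's quasi-likelihood fit over 18 libraries, with its standard error (SE) and adjusted p. A gene was called when its adjusted p, by the Benjamini-Hochberg method over all genes tested, was under 0.05. All 10 fibroblast markers passed 1 CPM in at least 1 library, at a summed 5443 to 5722 CPM in acetate and 5187 to 5995 CPM in the combination. All 8 leukocyte markers and 5 of 6 epithelial markers were under 1 CPM in every library, and 4 of 6 endothelial markers were, with endothelial sums of 168 to 192 CPM in acetate and 189 to 199 CPM in the combination.

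Adding mtDNA to acetate-treated depleted cells was accompanied by a broad rise of the interferon programme and a smaller rise of NF-κB genes. In all, 2136 genes (12.6% of those tested) were called, of which 1116 (6.57%) were higher and 1020 (6.0%) were lower. Most changes were small, with 1365 of the called genes under 0.5 on the log2 scale, 135 higher by more than 1 and 206 lower by more than 1. The median log2 fold change of all genes tested was 0.00, and the 3 libraries of each group did not overlap in 31.2% of the genes tested. Up to 6 members of each list are named below because they were called and did not overlap. For these genes the lack of overlap came from the choice itself and is not further evidence of a difference. Scaling with DESeq2 size factors gave 1641 higher and 894 lower genes, so that 64.7% of the calls were higher against 52.3% with TMM.

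Without combination replicate 2, 855 genes (4.89%) were higher and 767 (4.38%) lower of 17497 tested. Of the genes called with it, 725 higher and 658 lower genes kept their call and direction. Leaving out acetate replicate 2 gave 1241 calls and leaving out acetate replicate 3 gave 1296, both of them the deepest libraries of that group, and 509 higher and 409 lower genes were called in all 6 fits that each left out 1 library. The plot of calls by gene list sets each list beside the share of all genes.

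**Figure D1:**
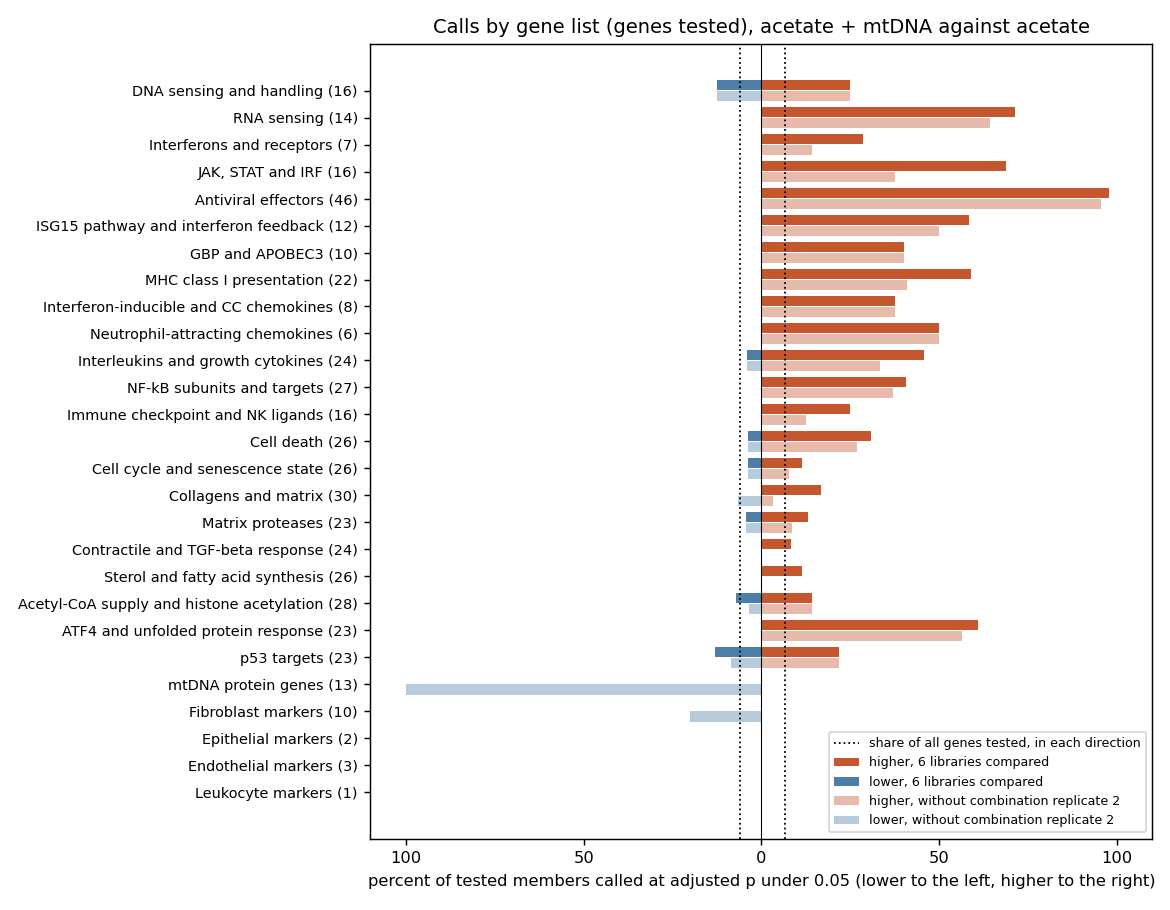
Share of the tested members of each gene list (number tested in brackets) called higher (right) or lower (left) in the combination against acetate, with the 6 libraries (dark bars) and without combination replicate 2 (pale bars); dotted lines mark the 6.57% higher and 6.0% lower of all genes tested. The antiviral effectors reach 97.8% higher, and the mtDNA protein genes are called lower only without replicate 2.

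Of 16 tested genes of DNA sensing and handling, 4 were higher and 2 lower, with a median log2 fold change of 0.11 beside 0.00 for all genes, and 4 and 2 genes were also called without replicate 2, when CGAS lost its call and TBK1 gained one. CGAS, the enzyme that detects cytosolic DNA, measured 10.7, 9.78 and 10.3 CPM in acetate and 12.99, 14.5 and 11.2 CPM in the combination, a log2 fold change of 0.33 (SE 0.10, adjusted p = 0.028). These groups did not overlap, but the call was lost without combination replicates 1 or 2 or acetate replicates 2 or 3, at values between 0.25 and 0.34. STING1, its membrane-bound adaptor, overlapped between groups (log2 fold change 0.12, SE 0.10, adjusted p = 0.49), and the kinase TBK1 gave 0.12 (SE 0.04, adjusted p = 0.072), or 0.15 without replicate 2 (adjusted p = 0.042).

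SAMHD1, which hydrolyses deoxynucleotides, stood at 39.7, 32.0 and 35.9 CPM in acetate and rose to 98.5, 212 and 106 CPM in the combination (log2 fold change 1.95, SE 0.19, adjusted p = 4.7e-07). IFI16, a nuclear DNA-binding sensor, stood at 84.7, 94.3 and 86.3 CPM and rose to 185, 327 and 198 CPM (1.42, SE 0.13, adjusted p = 2.1e-07). For both genes the 2 groups did not overlap and replicate 2 was the highest library, and without it the differences were 1.52 and 1.11. IRF3, the factor that carries the STING signal to the nucleus, fell by 0.30 on the log2 scale (SE 0.07, adjusted p = 0.0081), and RNASEH2C, a subunit of the nuclease that removes RNA from RNA–DNA hybrids, fell by 0.51 (SE 0.09, adjusted p = 4.4e-04).

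Cytosolic RNA sensing was the sensing arm in which most members rose: 10 of 14 tested genes were higher and none lower (median 1.20), and 9 were higher without replicate 2. IFIH1, which encodes the long double-stranded RNA sensor MDA5, went from 8.50, 7.75 and 8.39 CPM in acetate to 68.7, 234 and 68.7 CPM in the combination (3.90, SE 0.34, adjusted p = 1.0e-07). RIGI, the sensor of short RNA ends, went from 58.9, 55.9 and 54.2 CPM to 224, 710 and 229 CPM (2.78, SE 0.28, adjusted p = 8.0e-07). In both, replicates 1 and 3 lay close together and far above acetate, and replicate 2 lay higher again. EIF2AK2, the RNA-activated kinase PKR, rose by 1.79 (SE 0.12, adjusted p = 6.0e-09) and ADAR, which edits double-stranded RNA, by 0.97 (SE 0.10, adjusted p = 1.2e-06). MAVS, the adaptor of both helicases, gave 0.01 (SE 0.05, adjusted p = 0.90) with overlapping groups.

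IFNB1, which encodes interferon-β, had 0 counts in every acetate library and 4, 30 and 6 counts in combination replicates 1, 2 and 3. Against a floor of 3 counts over the acetate group, its level was at least 18.1-fold higher in the combination (edgeR adjusted p = 0.0082), and at least 6.23-fold higher without replicate 2 (10 counts, adjusted p = 0.012). It had too few counts to be tested in fits of only the compared libraries, and these intervals and floors cover counting error only. The transcript was thus seen in all combination libraries and in no acetate library, at 0.109, 1.23 and 0.210 CPM. Among the other 6 tested genes of the list, IFNGR2, a chain of the interferon-γ receptor, gave 0.16 (SE 0.05, adjusted p = 0.036), a call lost without combination replicates 1 or 2 or acetate replicates 2 or 3, at 0.138 to 0.155. The interferon-β receptor chains did not pass the test: IFNAR1 gave 0.02 (SE 0.05, adjusted p = 0.83) and IFNAR2 gave -0.02 (SE 0.07, adjusted p = 0.88).

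In the list of JAK, STAT and IRF genes, which relay the interferon signal, 11 of 16 were higher and none lower (median 0.41), and 6 were higher without replicate 2 (median 0.22). IRF7, which amplifies interferon gene expression, went from 0.795, 0.793 and 0.672 CPM in acetate to 5.83, 15.2 and 6.30 CPM in the combination (3.57, SE 0.33, adjusted p = 1.9e-07). No library of IRF7 crossed into the other group, and replicate 2 was the highest. STAT2 rose by 0.98 (SE 0.16, adjusted p = 2.9e-04), IRF9 by 1.29 (SE 0.20, adjusted p = 1.2e-04) and BATF2, an interferon-inducible basic leucine zipper gene, by 4.06 (SE 0.48, adjusted p = 5.8e-06). The 5 that lost their call without replicate 2 included IRF1 (0.37 with it, 0.20 without) and STAT3 (0.19 and 0.14), both also lost without acetate replicates 2 or 3. TYK2, the kinase bound to IFNAR1, gave -0.14 (SE 0.06, adjusted p = 0.16).

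The antiviral effectors had the highest share of called members of the lists examined. All 46 were tested, 45 were higher and none was lower, with a median log2 fold change of 2.76 and a range from 0.17 to 8.55, and 44 were higher without replicate 2 (median 2.23). Their summed level was 1234 to 1268 CPM in the acetate libraries and 3652, 9508 and 3814 CPM in combination replicates 1, 2 and 3. The exception was SLFN11, a translation-restricting factor (0.17, SE 0.07, adjusted p = 0.13). TRIM22, a ubiquitin ligase, was the 1 lost without replicate 2 (0.57 with it, 0.25 without).

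RSAD2, whose product viperin makes a chain-terminating nucleotide, stood at 0.104, 0.176 and 0.0839 CPM in acetate and 27.4, 89.8 and 27.4 CPM in the combination (8.55, SE 0.63, adjusted p = 1.0e-08), the largest rise over all genes with a symbol and at least 1 CPM in the higher group. OAS1 and OAS2, which make the 2-5A second messenger that turns on RNase L, were next among the OAS genes. OAS1 went from 0.0691, 0.0441 and 0.105 CPM to 7.55, 55.7 and 9.52 CPM (8.24, SE 0.94), and OAS2 from 0.104, 0.0661 and 0.294 CPM to 14.2, 86.1 and 13.3 CPM (7.79, SE 0.84). BST2, which tethers budding virions to the cell, had 4 counts in all over the acetate libraries and 116, 635 and 92 counts in the combination (3.16, 26.02 and 3.22 CPM), so it was close to undetected in acetate. OASL rose by 7.73 (SE 0.64), the nucleotide kinase gene CMPK2 by 7.63 (SE 0.80) and IFI44L by 7.56 (SE 0.94).

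MX1, a dynamin-like GTPase that traps viral nucleocapsids, went from 1.00, 0.969 and 0.735 CPM to 61.8, 325 and 62.0 CPM (7.38, SE 0.62, adjusted p = 5.5e-08). IFIT1, which binds RNA with foreign cap ends, went from 9.61, 8.17 and 9.53 CPM to 227, 847 and 227 CPM (5.58, SE 0.38, adjusted p = 9.0e-09), 47.6-fold by the group means and 24.9-fold without replicate 2. In every one of the 46 genes replicate 2 was the highest combination library, at 1.14 to 8.16 times the mean of replicates 1 and 3. Per transcript length, IFIT3 reached 893 ± 611 TPM and IFITM3 811 ± 227 TPM in the combination (SD, n = 3), and IFITM3, which blocks viral entry at endosomes, already stood at 370 TPM in acetate. IFITM3 rose by 1.17 (SE 0.12) and SLFN5, a Schlafen family member, by 0.51 (SE 0.07).

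**Figure D2:**
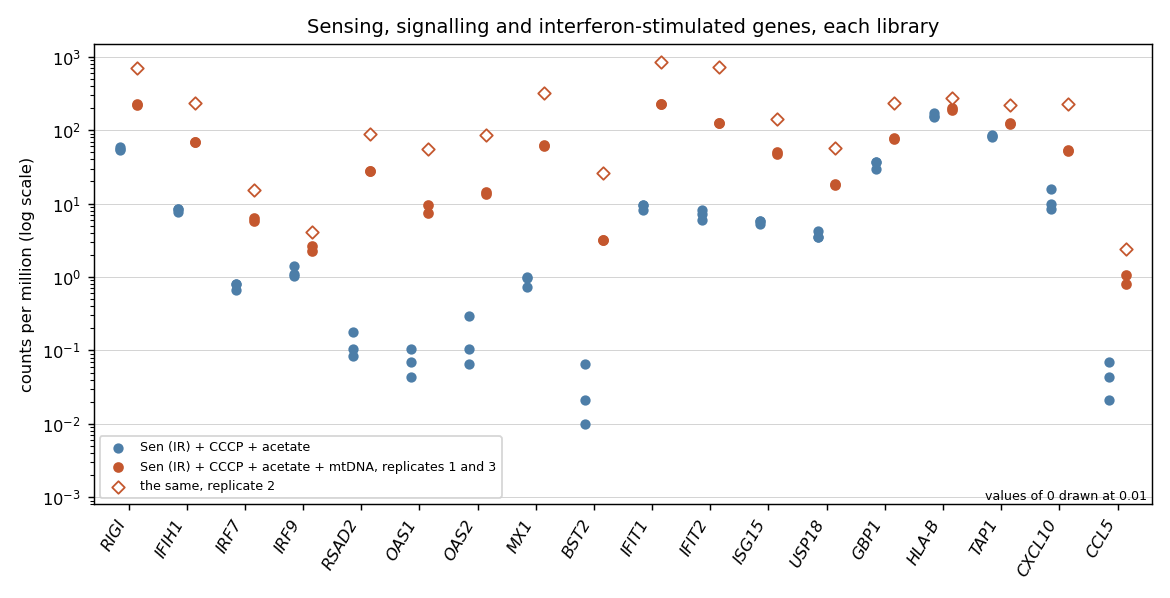
Level in CPM (log axis) of 18 sensing, signalling and interferon-stimulated genes in each acetate library (blue) and each combination library (orange, replicate 2 as an open diamond). For every gene shown all combination libraries lie above all acetate libraries, replicate 2 highest. Called genes without overlap were favoured in the choice, which sets this separation in part. RSAD2 goes from at most 0.176 CPM to at least 27.4 CPM.

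The ISG15 system, a ubiquitin-like tag and the enzymes that attach and remove it, rose from the modifier to its ligases. ISG15 went from 5.77, 5.33 and 5.79 CPM to 47.8, 142 and 49.6 CPM (3.82, SE 0.30, adjusted p = 2.3e-08). The main ligase HERC5 went from 1.49, 1.52 and 1.51 CPM to 24.4, 90.8 and 21.1 CPM (4.89, SE 0.46, adjusted p = 2.6e-07), and USP18, which removes the tag and damps the interferon receptor, from 4.29, 3.48 and 3.50 CPM to 17.7, 57.9 and 18.5 CPM (3.05, SE 0.33). The groups were far apart for all 3 genes. The conjugating enzyme UBE2L6 rose by 1.08 (SE 0.15), whereas the activating enzyme UBA7 rose by 1.22 (SE 0.30) and lost its call without replicate 2 (0.54). In all, 7 of 12 tested genes were higher and none lower (median 1.15), and 6 were higher without replicate 2 (median 0.66). The cytokine feedback inhibitors did not pass: SOCS1 gave 0.40 (SE 0.48, adjusted p = 0.66) and SOCS3 gave 0.15 (SE 0.08, adjusted p = 0.21).

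Of the guanylate-binding proteins, GTPases that attack pathogen-containing vacuoles, GBP1, GBP3, GBP4 and GBP5 rose, and GBP2 (0.65, SE 0.25, adjusted p = 0.10) and the APOBEC3 cytidine deaminases did not pass the test. GBP1 went from 37.2, 29.3 and 36.8 CPM to 79.0, 237 and 75.4 CPM (1.92, SE 0.28, adjusted p = 9.2e-05), and GBP4 rose by 4.08 (SE 0.56). GBP5 had 2 counts over the acetate group and 91 over the combination, a ratio of 61.9 (95% counting interval 17.1 to 511), and 26.2 without replicate 2, which held 63 of the 91 counts. APOBEC3G measured 1.11, 0.683 and 0.945 CPM in acetate and 0.981, 3.20 and 0.840 CPM in the combination (0.82, SE 0.36, adjusted p = 0.15), so only replicate 2 lay above acetate. In all, 4 of 10 genes were called higher, 4 again without replicate 2, and the median fell from 0.65 with replicate 2 to 0.11 without it; reads of the near-identical APOBEC3 genes may be split between copies.

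Genes that load peptides onto MHC class I rose by less. Of 22 tested, 13 were higher and none lower (median 0.31), and 9 were higher without replicate 2 (median 0.20). The peptide transporter gene TAP1 went from 83.2, 81.9 and 84.6 CPM to 124, 217 and 120 CPM (0.88, SE 0.14, adjusted p = 2.2e-04), and NLRC5, the transactivator of class I genes, from 5.32, 6.96 and 6.99 CPM to 9.53, 32.1 and 11.0 CPM (1.40, SE 0.29, adjusted p = 0.0024). PSMB9, an immunoproteasome subunit, rose by 1.14 (SE 0.19) and B2M, the light chain, by 0.49 (SE 0.09). The heavy chain gene HLA-B was less stable and gave 0.47 (SE 0.12, adjusted p = 0.010), lost without combination replicate 2 (0.28) or acetate replicate 2 (0.44). HLA genes are similar in sequence, and their counts may share reads.

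Of the interferon-inducible ligands of CXCR3 on T cells, CXCL10 and CXCL11 rose. CXCL10 measured 16.0, 8.48 and 9.76 CPM in acetate and 52.0, 229 and 53.8 CPM in the combination (3.31, SE 0.43, adjusted p = 1.8e-05). CXCL11 went from 0.933, 0.529 and 0.630 CPM to 7.46, 32.4 and 8.96 CPM (4.56, SE 0.51). CCL5, a T cell and monocyte attractant, had 2, 2 and 1 counts in acetate and 39, 58 and 23 counts in the combination (4.94, SE 0.56, adjusted p = 7.3e-06). These 3 were the called genes among 8 tested of their list, with and without replicate 2 (median 1.33 and 0.48). CCL2, the monocyte attractant, overlapped between groups (0.69, SE 0.31, adjusted p = 0.15).

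Among neutrophil attractants 3 of 6 tested were higher, again with and without replicate 2 (median 0.74 and 0.59). CXCL8, which encodes interleukin-8, measured 417, 320 and 310 CPM in acetate and 512, 409 and 501 CPM in the combination (0.44, SE 0.11, adjusted p = 0.0088). Here acetate replicate 1 lay above combination replicate 2, and the call was lost without acetate replicates 2 or 3, at 0.39 and 0.37. CXCL2 rose from 0.760, 0.903 and 0.881 CPM to 2.12, 2.66 and 1.36 CPM (1.25, SE 0.23, adjusted p = 7.8e-04) and CXCL5 rose by 0.64 (SE 0.13), both without overlap.

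Of 24 tested interleukin and growth cytokine genes, 11 were higher and 1 lower (median 0.37), and 8 and 1 were without replicate 2. IL6 measured 145, 116 and 112 CPM in acetate and 198, 256 and 185 CPM in the combination (0.78, SE 0.11, adjusted p = 3.9e-05), 1.71-fold by the group means and 1.54-fold without replicate 2. IL6 was already high in acetate, and all combination libraries lay above all acetate libraries. FGF2, a fibroblast mitogen, rose by 0.65 (SE 0.07), INHBA, the activin A subunit, by 0.40 (SE 0.06) and TNFSF15, a TNF-family ligand of DR3, by 1.67 (SE 0.14). IL1A, the upstream interleukin of the secretory phenotype, gave 0.38 (SE 0.10, adjusted p = 0.015), lost without combination replicate 2 or acetate replicates 2 or 3 at 0.27 to 0.37, and IL1B overlapped between groups (0.17, SE 0.09, adjusted p = 0.24). VEGFA, the angiogenic factor, was the 1 gene of the list that fell, from 529, 547 and 548 CPM to 462, 395 and 473 CPM (log2 fold change -0.29, SE 0.06, adjusted p = 0.0029).

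**Figure D3:**
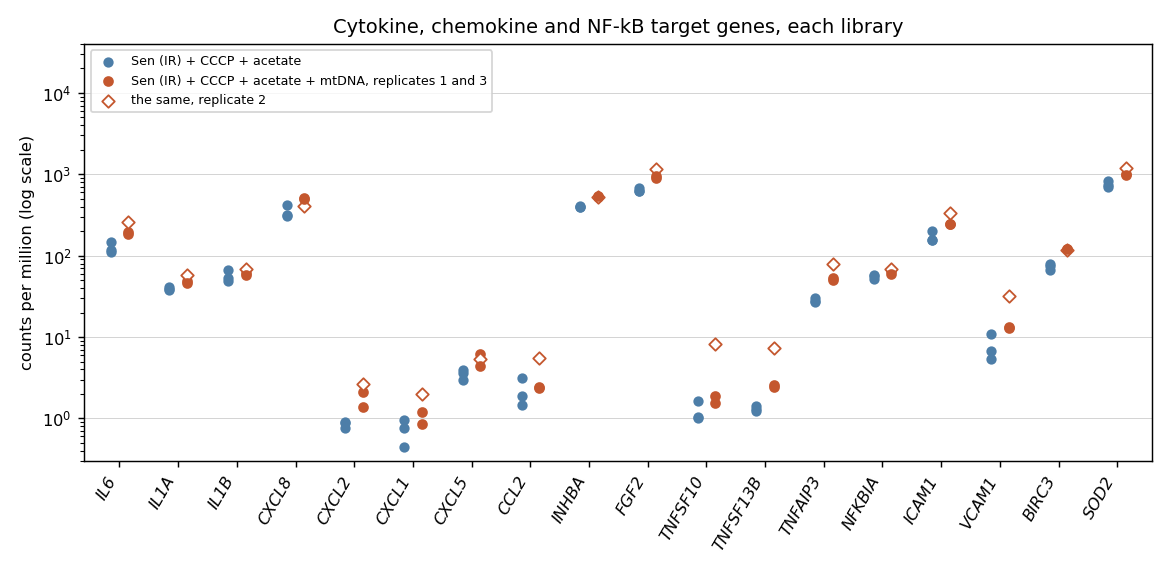
Level in CPM (log axis) of 18 cytokine, chemokine and NF-κB target genes in each acetate library (blue) and each combination library (orange, replicate 2 as an open diamond). The shifts are small beside those of the interferon-stimulated genes: IL6 goes from 112 to 145 CPM in acetate to 185 to 256 CPM in the combination, and CXCL8, CCL2, CXCL1, IL1B and TNFSF10 overlap between groups.

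Of 27 NF-κB subunit and target genes, 11 were higher and none lower (median 0.20), and 10 were higher without replicate 2 (median 0.13). TNFAIP3, the feedback inhibitor A20, went from 30.6, 27.0 and 27.9 CPM to 50.1, 80.1 and 53.01 CPM (1.10, SE 0.12, adjusted p = 3.5e-06). BIRC3, an inhibitor of apoptosis, went from 79.9, 73.7 and 65.9 CPM to 122, 117 and 119 CPM (0.71, SE 0.07, adjusted p = 1.3e-06), a gene in which the 3 combination libraries lay close together. The adhesion molecules VCAM1 (1.34, SE 0.27) and ICAM1 (0.67, SE 0.12) rose, as did the subunit genes NFKB1 (0.51, SE 0.06), REL (0.62, SE 0.14) and RELB (0.42, SE 0.10). RELA gave -0.04 (SE 0.04, adjusted p = 0.61), and NFKBIA, which encodes IκBα, gave 0.22 (SE 0.07, adjusted p = 0.034), a call lost without combination replicates 1 or 2 or acetate replicates 2 or 3 at 0.17 to 0.24.

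Of 16 immune checkpoint genes and natural killer ligands, 4 were higher and none lower, 2 of them without replicate 2. CD274, which encodes the T cell inhibitor PD-L1, went from 105, 108 and 101 CPM to 162, 313 and 166 CPM (1.03, SE 0.16, adjusted p = 1.6e-04). IDO1, the interferon-inducible enzyme that degrades tryptophan, had 0 counts in acetate and 12, 30 and 14 counts in the combination, at least 25.4-fold higher against the same floor (adjusted p = 4.4e-05), or at least 16.2-fold without replicate 2. These were the 2 that kept their call; PDCD1LG2, which encodes PD-L2, went from 0.24 to 0.18 and PVR from 0.27 to 0.18 without replicate 2, and the PVR call was also lost without acetate replicates 2 or 3.

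Among 26 cell death genes, 8 were higher and 1 lower (median 0.23), and 7 and 1 were without replicate 2 (median 0.12). XAF1, an interferon-induced antagonist of XIAP, went from 0.933, 0.969 and 1.13 CPM to 6.57, 15.1 and 6.41 CPM (3.16, SE 0.28). MLKL, the executioner of necroptosis, rose by 0.74 (SE 0.11) and the BH3-only gene PMAIP1 by 0.67 (SE 0.08). TNFRSF10D, a decoy receptor for the death ligand TRAIL, fell from 769, 765 and 724 CPM to 479, 242 and 455 CPM (-0.94, SE 0.16, adjusted p = 3.8e-04). TNFSF10, which encodes TRAIL, was counted with the interleukin and growth cytokine genes and not in this list. It gave 1.64 (SE 0.48, adjusted p = 0.026) on 1.88, 8.24 and 1.54 CPM against 1.62, 1.03 and 1.01 CPM, so that the groups overlapped. The TNFSF10 call was lost without combination replicate 2 (0.55) or acetate replicates 2 or 3.

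Genes of the ATF4 and unfolded protein response rose by small amounts, 14 of 23 being higher and none lower (median 0.19) and 13 higher without replicate 2, a count that went to 9 for genes called in all 6 fits that left out 1 library. ATF3, a stress-induced repressor, went from 166, 162 and 154 CPM to 223, 333 and 235 CPM (0.71, SE 0.10, adjusted p = 2.9e-05). XBP1 (0.52, SE 0.07), TRIB3 (0.45, SE 0.06) and CHAC1 (0.43, SE 0.07), which encode a transcription factor of the unfolded protein response, a pseudokinase and a glutathione-degrading enzyme, also rose. ATF4 itself gave -0.17 (SE 0.06, adjusted p = 0.063).

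In lists of the senescent state, the matrix and lipid synthesis, between 8.33% and 21.7% of the members were higher, against 6.57% of all genes. In the cell cycle and senescence list 3 of 26 were higher and 1 lower, and in this list CDKN1A (p21) overlapped between groups at 1895, 1774 and 1886 CPM and 1817, 1706 and 1751 CPM (-0.07, SE 0.05, adjusted p = 0.36). CDKN2A gave 0.06 (SE 0.10, adjusted p = 0.72), while the CDK4 inhibitor gene CDKN2B rose by 0.32 (SE 0.05, adjusted p = 1.5e-04). Of 23 p53 targets 5 were higher and 3 lower (21.7% and 13.04%), among them FDXR, a mitochondrial electron donor, which fell by 0.58 (SE 0.08) and PMAIP1, which is also in the cell death list. Collagen and matrix genes had 5 of 30 higher and none lower, but 1 higher and 2 lower without replicate 2, and 1 in all 6 fits that left out 1 library. Neither the 3 of 23 higher matrix proteases and inhibitors, nor the 2 of 24 contractile and TGF-β response genes, nor the 3 of 26 sterol and fatty acid genes were called in all of those fits. MMP3, stromelysin-1, fell by 0.47 (SE 0.11, adjusted p = 0.0046).

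Of 28 genes that make acetyl-CoA or use it for histone acetylation, 4 were higher (14.3%) and 2 lower (7.14%), with a median of -0.00, and 4 and 1 were without replicate 2. ACSS2, which makes acetyl-CoA from acetate, gave 0.15 (SE 0.08, adjusted p = 0.22) and ACLY, which makes it from citrate, gave 0.12 (SE 0.07, adjusted p = 0.27). HDAC9 rose from 37.2, 37.6 and 36.6 CPM to 47.7, 47.6 and 52.7 CPM (0.41, SE 0.05, adjusted p = 1.6e-05), and HDAC1 fell by 0.23 (SE 0.04, adjusted p = 0.0012).

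Counts on the mtDNA itself separated replicate 2 from the others. The 13 protein genes of mtDNA held 0.124%, 0.134% and 0.138% of counts in the acetate libraries, and 0.0640%, 0.237% and 0.0624% in combination replicates 1, 2 and 3. Replicates 1 and 3 lay below all acetate libraries and replicate 2 above them, so the difference in group means was -0.0109 percentage points (exact two-sided permutation test, p = 1.0, n = 3 against 3, smallest possible p = 0.10). Without replicate 2 it was -0.0688 points (exact p = 0.20, the smallest that 2 against 3 allows with this two-sided rule). In intact Sen (IR) cells the share was 2.11 ± 0.468% (SD, n = 3). Depleted cells without acetate had 0.122 ± 0.0117% in Sen (IR) + CCCP and 0.0505 ± 0.00387% in Sen (IR) + CCCP + mtDNA (SD, n = 3 each).

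None of the 13 genes was called with the 6 libraries (median log2 fold change -0.06), and all 13 were lower without replicate 2 (median -0.99). MT-CO1, a cytochrome c oxidase subunit, measured 226, 247 and 252 CPM in acetate and 122, 439 and 121 CPM in the combination, with a log2 fold change of -0.09 (SE 0.30, adjusted p = 0.89) and, without replicate 2, of -0.99 (adjusted p = 2.5e-06). MT-ND6, the 1 protein gene on the other strand, behaved alike at 35.1, 39.2 and 38.6 CPM and 17.8, 76.1 and 16.7 CPM. Over the 13 genes replicate 2 was 3.54 to 4.42 times the mean of replicates 1 and 3. Counting of RNA made in the cells, transfected DNA carried into a library and nuclear copies of mtDNA cannot be told apart in these tables, and fewer mitochondria and less RNA per mitochondrion cannot either.

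**Figure D4:**
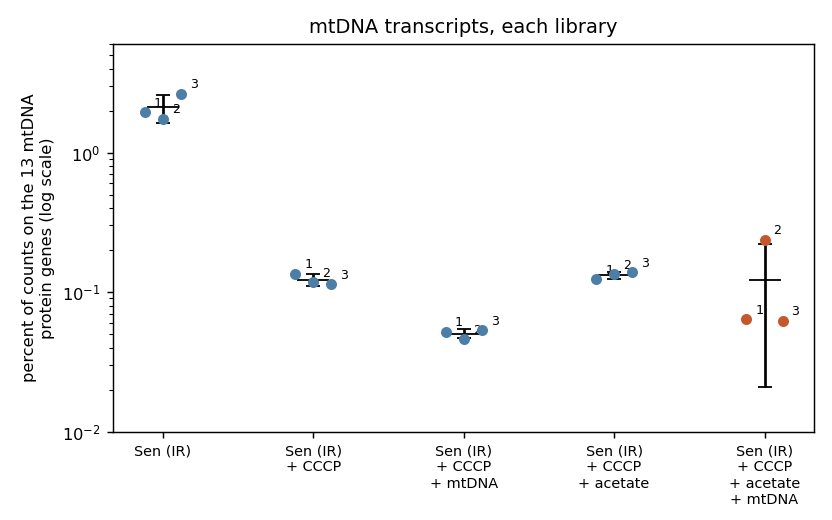
Percent of each library's counts on the 13 mtDNA protein genes (log axis), points labelled by replicate, with the mean (bar) and SD (whiskers) of 3 libraries per group. Combination replicates 1 and 3 (0.0640% and 0.0624%) lie below the acetate libraries and replicate 2 (0.237%) above them; intact Sen (IR) cells average 2.11%.

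Replicate 2 departed from the other combination libraries by more than 2-fold in few genes, but it also differed more widely. It was the highest combination library in 746 of the 1116 higher genes. The mean chi-square per gene was 28.3 against replicate 1 and 24.8 against replicate 3, beside 3.34 between replicates 1 and 3. Of 10269 genes with a mean of at least 5 CPM in the combination, 86 were over 2 times and 2 under 0.5 times the mean of replicates 1 and 3. The 86 held all 13 mtDNA protein genes and 50 members of the 8 lists on sensing, interferon, presentation and interferon-inducible chemokines. The 5 highest by log2 difference were BST2, OAS1, IFI27, IFI44L and OAS2, at 2.64 to 2.99 above replicates 1 and 3. The 5 lowest were ZBTB20, MIR210HG, TNFRSF10D, ID2 and AC089983.1, at 0.81 to 1.26 below on that scale. ZBTB20, a transcriptional repressor, thus had the reverse order among replicates while still rising over acetate, from 0.864, 1.498 and 1.28 CPM to 7.82, 3.93 and 11.2 CPM (2.63, SE 0.35, adjusted p = 2.7e-05). The library's lower total, higher mtDNA counts and higher interferon genes came together, and the part of each in the others was not tested. As measured, the direction of the 44 antiviral genes called without it did not rest on replicate 2.

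**Figure D5:**
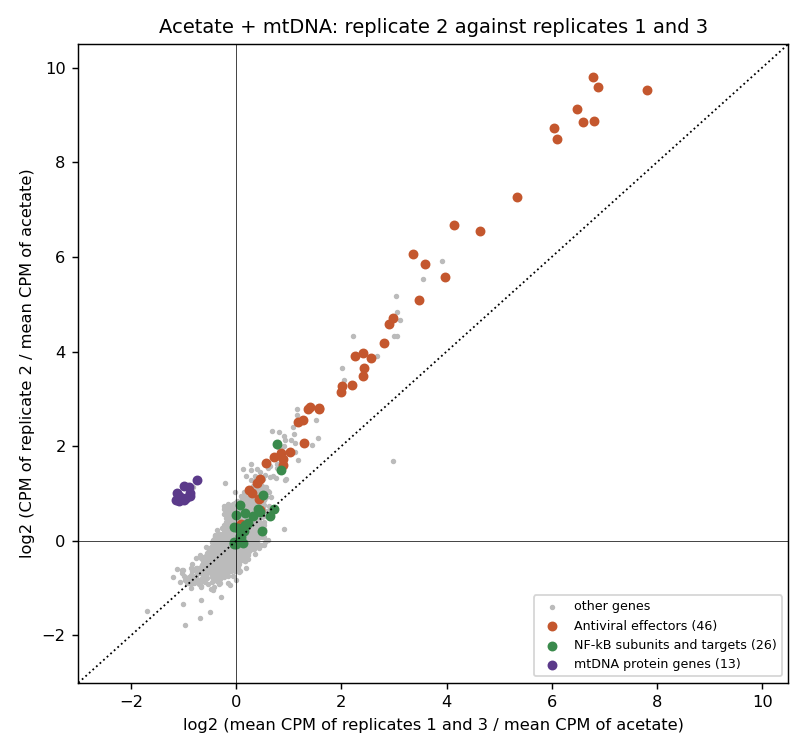
Log2 ratio to the mean acetate level of combination replicate 2 (vertical) against that of the mean of replicates 1 and 3 (horizontal), 1 point per gene with at least 5 CPM in the combination; the dotted line marks equality. Antiviral effectors lie to the right of 0 and above the line, the 13 mtDNA protein genes lie left of 0 and above 0, and NF-κB genes lie near the line.

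The genes that fell were also mostly protein-coding, but held a larger share of long noncoding RNAs than those that rose. Long noncoding RNAs made up 13.3% of the genes tested, 1.88% of those higher and 21.6% of those lower, and 220 of 2254 were lower against 21 higher. Protein-coding genes made up 96.9% of those higher and 68.4% of those lower. The largest falls with at least 1 CPM in acetate were in RNAs of low level. AC010976.1, a long noncoding RNA, led with 0.899, 2.16 and 1.18 CPM in acetate and 0.381, 0.287 and 0.350 CPM in the combination (-2.05, SE 0.38, adjusted p = 8.6e-04). GNRH1, which encodes gonadotropin-releasing hormone, fell from 3.66, 5.22 and 5.42 CPM to 1.39, 1.72 and 1.75 CPM (-1.59, SE 0.20, adjusted p = 1.4e-05) and kept the difference without replicate 2 (-1.64). MASP2, a complement-activating protease, fell by 1.86 (SE 0.32), LEAP2, a secreted peptide, by 1.85 (SE 0.37) and MARCHF1, a membrane ubiquitin ligase, by 1.77 (SE 0.36). The other members of the 12 largest falls were GOT1-DT, AC015849.3, U2AF1L5, AP000941.1, LINC00685, HNRNPK-AS1 and AC015813.1, all of them noncoding or, for U2AF1L5, a near copy of U2AF1 whose reads may be shared. These 12 were taken only from called genes without overlap, so the choice itself placed all 3 combination libraries below all 3 acetate libraries. Each was also called without replicate 2.

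For scale, the group given mtDNA without acetate, Sen (IR) + CCCP + mtDNA, shares no library with this comparison. RSAD2 stood at 251 ± 73.5 CPM there (SD, n = 3) and at 0.157 ± 0.0391 CPM in Sen (IR) + CCCP, beside 48.2 ± 36.0 CPM in the combination and 0.121 ± 0.0486 CPM in acetate. IL6 stood at 64.0 ± 9.05 CPM with mtDNA alone and 18.2 ± 0.396 CPM in Sen (IR) + CCCP, beside 213 ± 37.8 CPM in the combination and 124 ± 18.2 CPM in acetate. CXCL8 was at 27.2 ± 3.12 CPM with mtDNA alone and 13.4 ± 0.895 CPM in Sen (IR) + CCCP. It was at 474 ± 56.4 CPM in the combination and 349 ± 59.3 CPM in acetate. RSAD2 was thus higher with mtDNA alone than in the combination, and the 2 cytokine genes were higher in the combination. Each of these genes had a higher mean with mtDNA than in the matching group without it. The difference between the groups' responses was not tested here.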

How the data were processed

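The authors deposited a table of gene counts and a table of TPM values over 18 libraries of polyadenylated RNA in 6 groups of 3. Per the submitters' notes and the study's methods, reads were trimmed with Trimmomatic 0.36, aligned to GRCh38 with STAR 2.5.2b and counted with featureCounts (Subread 1.5.2); the methods count strand-specific libraries by strand, but whether these libraries were strand-specific is not given in the sources used here, so antisense partners may share reads. Deposited counts were used for all tests and deposited TPM values only for levels per transcript length. Symbols came from the reference table by gene identifier (56410 of 57500 matched), otherwise from the count table. Counts were filtered with filterByExpr, scaled by TMM and tested in edgeR 4.0.16 (R 4.3.3) with a quasi-likelihood model of 6 group means over the 18 libraries; DESeq2 1.42.0, the study's tool, was an alternative, as were other filters, fits of fewer libraries and leaving out each library. The fit was also run on simulated counts with known changes, and the outcome of that run is not given here. Totals of 25013145 to 46045962 counts a library limit low genes most. Exact permutation tests used scipy 1.17.1. No library was a copy of another: the 6 pairs within groups differed beyond counting noise (mean chi-square per gene 3.34 to 28.3). Members, gene lists and motifs were chosen with earlier results of these data known. Some genes that the rule names are not reported here. Genes were named by rule. In each list these were up to 6 called members without overlap plus its defining members. The 12 largest rises and falls came from called genes with a symbol, no overlap and at least 1 CPM in the higher group. The 5 genes at each end of the comparison of replicate 2 were also named.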

Additional observations from a re-analysis of the deposited data

How the results depend on the processing

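The count of called genes, 2136, ranged from 1241 to 1882 when 1 library was left out, higher genes from 668 to 1096 and lower genes from 538 to 841. The DESeq2 Wald test gave 1824 higher genes, and the study's rule on its output (nominal p under 0.05, log2 fold change over 0.5) gave 1221 genes, 453 higher and 768 lower. A fit of only the 6 libraries, with its own estimate of the spread, called 1487 genes, 787 higher and 700 lower. Of 177 named genes called in the main fit and tested there, 147 kept their call. In that fit 7 JAK, STAT and IRF genes and 0 collagen and matrix genes were higher. With the replicate block in a fit of only the 6 libraries, 865 genes were called, 462 higher and 403 lower. Over 18 libraries the replicate block gave 1177 higher and 1015 lower. Deviations of same-numbered acetate and combination libraries correlated at -0.09 to -0.00, and no library correlated best with its own number. With 3 libraries per group these correlations cannot tell whether equal numbers mark a shared batch. The cause of the shifts in calls was not tested. Without combination replicate 2, MT-ND1 turned from 0.08 to -0.983 (-0.985 with only the 5 remaining libraries) and MT-ATP8 from 0.10 to -0.892 (-0.893); leaving out 1 library gave -0.983 to 0.431 and -0.892 to 0.441. The difference in the mtDNA share ranged from -0.0688 to 0.0185 points when 1 library was left out. Of 179 named genes called, 141 were called in all 6 fits that left out 1 library, and none of the 179 changed sign under any alternative run. Depth limits genes at a few counts, such as IFNB1, IDO1 and GBP5.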

Other observations

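Some of the more abundant protein-coding RNAs that fell encode splicing-associated factors, a group picked after their values were seen and given as values only. CCNL2, a cyclin linked to splicing, went from 177, 227 and 211 CPM in acetate to 104.7, 108 and 120.5 CPM in the combination (log2 fold change -0.88, SE 0.08, adjusted p = 1.2e-07 by edgeR). LUC7L3, a U1-associated protein gene, went from 178, 198 and 187 CPM to 124, 122 and 125 CPM (-0.60, SE 0.05), and SNRNP70, a core U1 protein gene, from 114, 123 and 116 CPM to 76.2, 80.1 and 79.4 CPM (-0.58, SE 0.05). DDX39B, an RNA helicase gene, fell by 0.82 and CLK2, a kinase of splicing factors, by 0.58. In all 5 the groups did not overlap, and combination replicate 2 lay with replicates 1 and 3, unlike in the antiviral genes. Without replicate 2 the 5 differences lay between -0.87 and -0.59.

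Interferon-related genes outside the lists also rose and were likewise chosen after their values were seen. PNPT1, a mitochondrial exoribonuclease, went from 34.9, 36.0 and 35.7 CPM in acetate to 76.6, 188 and 74.2 CPM in the combination (1.66, SE 0.22), and MYD88, the adaptor of Toll-like receptors, from 16.8, 15.6 and 15.2 CPM to 28.2, 62.2 and 26.6 CPM (1.29, SE 0.20). DST, a large cytoskeletal linker, followed the replicate order of ZBTB20 rather than that of the antiviral genes, at 422, 312 and 560 CPM in the combination against 235, 278 and 275 CPM in acetate, and lost its call without combination replicate 3 (0.71 with it, 0.49 without).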
